A study of Homo sapiens with 3 samples.

Results

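The interleukin-1 (IL-1) family and its receptors were examined in LX-2 cells, an immortalized human hepatic stellate cell line, with or without rhFGF19, which is recombinant human FGF19. The set was fixed by gene symbol as IL1A, IL1B, IL1RN, IL1R1, IL1RAP, IL1RL1, IL33, IL18, MYD88 and IRAK1. Of these 10 genes, 9 were found among the 26108 genes of the expression table, and IL1RN, the gene of the secreted receptor antagonist, was not analysed here. The mRNA of 3 libraries was sequenced, namely vehicle, 50 ng/mL rhFGF19 and 100 ng/mL rhFGF19, with 1 library per condition. No comparison therefore had a replicate check, and no test or p-value is given. Both rhFGF19 libraries were compared with the same vehicle library, so their differences from it are not independent. The study and the series record give 24 h of stimulation, whereas the descriptions of the rhFGF19 samples name 72 h and 73 h, with the doses the other way round. The doses used here follow the sample titles, and no order between the doses is read from the values.

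IL-1α and IL-1β, the products of IL1A and IL1B, are cytokines that bind the receptor IL1R1 together with its accessory chain IL1RAP. The assembled receptor recruits the adaptor MYD88 and kinases of the IRAK group, and the signal ends on NF-κB and AP-1 transcription factors that switch on chemokine and cytokine genes. IL-1β and IL-18 are made as precursors that inflammasomes cut, whereas IL-33 signals through IL1RL1, also called ST2. In fibroblasts and stellate cells IL-1 is known for driving an inflammatory state, and the study asked whether FGF19 brings LX-2 cells into such a state.

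The stretches just upstream of IL1A, IL1B, MYD88 and IRAK1 are shown because these were the 4 members with a mean of at least 0.5 FPKM, and because they differ in base composition. FPKM counts fragments per kilobase of transcript relative to the library's mapped fragments, so levels can be set side by side between genes per length. The sequences are from RefSeq (GRCh38.p14), on the strand of the gene, and end before the outermost annotated start in GENCODE v29. They lie at chr2:112784591-112784743 on the minus strand for IL1A and chr2:112836904-112837029 on the minus strand for IL1B. Those of MYD88 and IRAK1 lie at chr3:38138411-38138477 on the plus strand and chrX:154019981-154020152 on the minus strand. Capitals mark a match to the STAT motif TTCNNNGAA, searched because the study followed JAK2-STAT3 signaling.
IL1A: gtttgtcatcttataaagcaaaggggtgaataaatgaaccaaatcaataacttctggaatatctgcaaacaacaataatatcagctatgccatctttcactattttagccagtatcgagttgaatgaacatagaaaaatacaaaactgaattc
IL1B: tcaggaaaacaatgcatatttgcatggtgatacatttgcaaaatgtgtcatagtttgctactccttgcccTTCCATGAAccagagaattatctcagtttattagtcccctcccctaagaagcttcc
MYD88: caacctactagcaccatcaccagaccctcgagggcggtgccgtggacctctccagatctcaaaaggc
IRAK1: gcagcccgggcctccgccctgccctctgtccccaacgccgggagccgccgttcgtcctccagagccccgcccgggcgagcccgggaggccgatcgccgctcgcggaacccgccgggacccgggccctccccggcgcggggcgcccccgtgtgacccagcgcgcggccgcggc

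The GC content of these stretches was 31.4% for IL1A, 40.5% for IL1B, 59.7% for MYD88 and 83.7% for IRAK1. Over the full windows, 250 bases before to 50 after a start, the motif TTCNNNGAA was found on either strand in 7.66% of all 35116 windows. The NF-κB motif, read as GGG, any 3 bases and TTCC, was found in 6.52% and the AP-1 motif TGANTCA in 7.71%. Each motif was searched separately, on both strands, so matches to different motifs may overlap. A window of IL1A starting at the same upstream base held 2 AP-1 matches, that of IL1B 1 STAT match, that of MYD88 1 STAT match and that of IRAK1 1 AP-1 match, of which the match of IL1B lies in the stretch shown. A match is a run of letters and does not show binding. The study itself reported STAT3 at the IL1B promoter in LX-2 cells, by chromatin immunoprecipitation with qPCR. Binding was not measured in the libraries used here.

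IL1A and IL1B were both more than 2-fold higher in each rhFGF19 library than in vehicle, and no member was more than 2-fold lower. IRAK1, by far the most abundant member in vehicle, lay at 54.5% of its vehicle level with 50 ng/mL and 54.6% with 100 ng/mL. The receptor chains IL1R1 and IL1RAP were listed below 1 FPKM in all 3 libraries, and IL1RL1, IL33 and IL18 at or below 0.17 FPKM. A gene was counted as higher or lower past an absolute difference of 1 on the log2(FPKM + 0.1) scale, which is 2-fold and the study's own criterion, among the 12447 genes that averaged 0.5 FPKM or more. This scale understates the change of low genes. Of the members, 4 passed that filter. With 50 ng/mL 2 of the 4 were higher, where 39.4% of all genes tested were, and 0 were lower, where 1.78% of all genes were. With 100 ng/mL the same counts, 2 higher and 0 lower, stood beside 38.5% and 1.58% of all genes. The median log2 fold change of the 4 was 0.92 with 50 ng/mL and 0.90 with 100 ng/mL, beside 0.62 and 0.61 over all genes tested. The other 5 listed members were under the filter and were not counted. With 4 genes, this share and these medians are descriptions of the members and set nothing apart from the other genes. In bulk RNA, fewer cells of a type and less RNA per cell cannot be told apart.

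**Figure D1:**
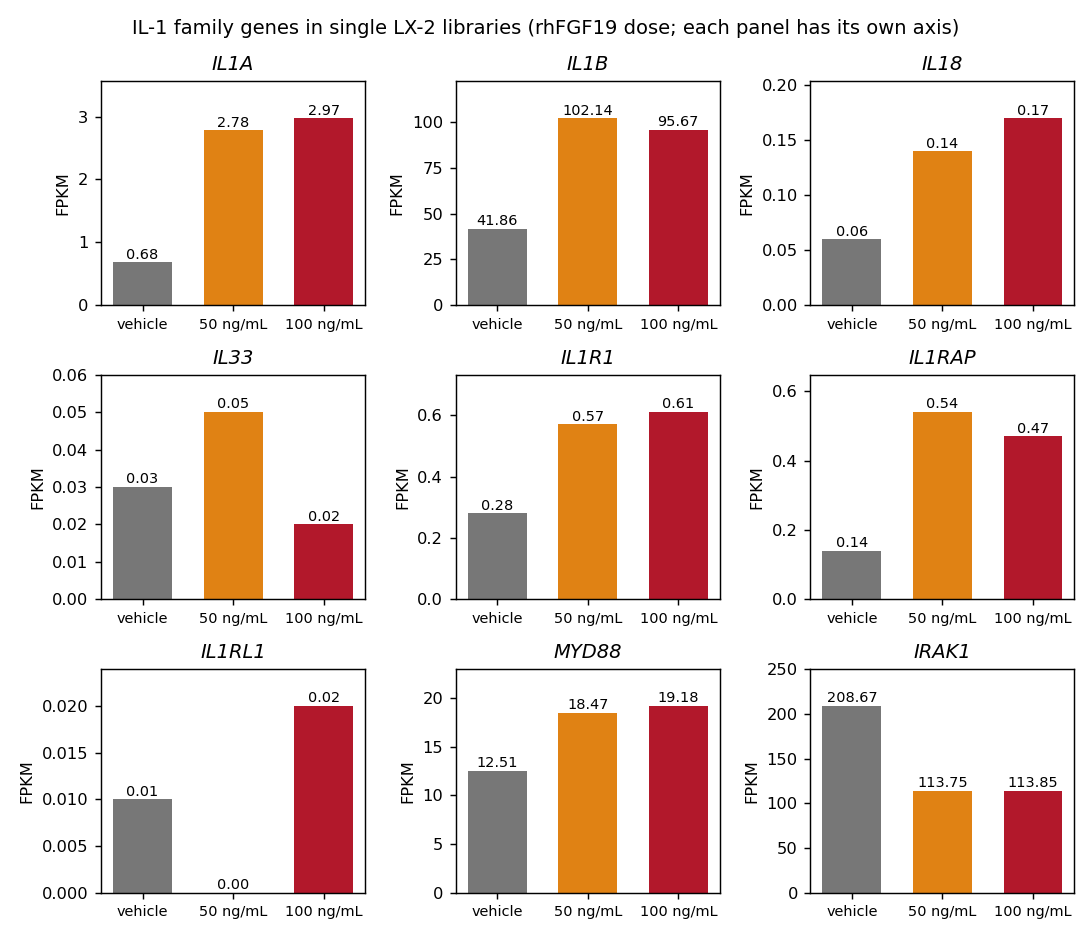
Levels in FPKM of the 9 listed members in the vehicle, 50 ng/mL and 100 ng/mL rhFGF19 libraries, 1 bar per library and a separate vertical axis from 0 for each gene. IL1A goes from 0.68 in vehicle to 2.78 and 2.97, IL1B from 41.86 to 102.14 and 95.67, and IRAK1 from 208.67 to 113.75 and 113.85, while IL18, IL33 and IL1RL1 stay near 0.

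Among the ligands, IL1B had the highest level. IL1B (ENSG00000125538, chr2:112829751-112836816, minus strand) was listed at 41.86 FPKM in vehicle, 102.14 with 50 ng/mL and 95.67 with 100 ng/mL. Both rhFGF19 libraries lay above vehicle, and the gap between them was small beside that to vehicle. The log2 fold change was 1.28 with 50 ng/mL and 1.19 with 100 ng/mL, or 0.67 and 0.58 above the median of all genes tested. With values rescaled so that genes listed at 1 FPKM or more throughout had a median log2 ratio of 0, it was 1.06 and 0.97, so that IL1B no longer passed 2-fold with 100 ng/mL. Its level stood at the 95.1 percentile of all listed genes in vehicle and at the 98.4 and 98.3 percentiles in the rhFGF19 libraries.

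IL1A encodes the cytokine that is active without inflammasome cutting and can act from the cell surface. IL1A (ENSG00000115008, chr2:112773925-112784493, minus strand) was listed at 0.68 FPKM in vehicle, 2.78 with 50 ng/mL and 2.97 with 100 ng/mL. Both rhFGF19 libraries lay above vehicle and close to each other. Its log2 fold change was 1.88 and 1.98, above that of IL1B on this scale. With a pseudocount of 1 the order was the other way round with 50 ng/mL, at 1.17 for IL1A and 1.27 for IL1B, as it was at both doses after quantile normalization, at 1.01 and 1.11 for IL1A and 1.52 and 1.41 for IL1B, and with 50 ng/mL without GC and length trends, at 0.31 and 0.46. The level nonetheless stayed low, since per length IL1B was listed at 61.6 times IL1A in vehicle, 36.7 times with 50 ng/mL and 32.2 times with 100 ng/mL.

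IL18 and IL33 were barely present in any library. IL18 (ENSG00000150782, chr11:112143253-112164093, minus strand) encodes an inflammasome-cut cytokine and was listed at 0.06 FPKM in vehicle, 0.14 with 50 ng/mL and 0.17 with 100 ng/mL. IL33 (ENSG00000137033, chr9:6215786-6257982, plus strand), the gene of a nuclear cytokine released from damaged cells, was listed at 0.03, 0.05 and 0.02 FPKM. Values of this size, written to 2 decimals, allow no direction to be read.

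The receptor for IL-1α and IL-1β was listed at a low level. IL1R1 (ENSG00000115594, chr2:102064544-102179866, plus strand), the chain that binds the ligand, had 0.28 FPKM in vehicle, 0.57 with 50 ng/mL and 0.61 with 100 ng/mL. Its mean of 0.487 FPKM was just below the filter, whereas IL1A, the lowest member above it, had a mean of 2.14. IL1RAP (ENSG00000196083, chr3:190514051-190657196, plus strand), the accessory chain that also serves IL-33 and IL-36 signaling, had 0.14, 0.54 and 0.47 FPKM. For both chains the rhFGF19 libraries lay above vehicle, with log2 fold changes of 0.82 and 0.90 for IL1R1 and 1.42 and 1.25 for IL1RAP. Neither was counted, because the mean was under the filter. IL1RL1 (ENSG00000115602, chr2:102311502-102346099, plus strand), the IL-33 receptor, was listed at 0.01 FPKM in vehicle, at 0 with 50 ng/mL and at 0.02 with 100 ng/mL, so that ligand and receptor of the IL-33 arm were both near 0.

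Behind the receptor, the adaptor lay above its vehicle level and the kinase below it in both rhFGF19 libraries, neither past 2-fold. MYD88 (ENSG00000172936, chr3:38138478-38143022, plus strand), the adaptor shared with Toll-like receptors, was listed at 12.51 FPKM in vehicle, 18.47 with 50 ng/mL and 19.18 with 100 ng/mL. The log2 fold changes, 0.56 and 0.61, were below 2-fold and close to the median of all genes, and they were below 0 with the trend on transcript length removed, at -0.22 and -0.15. IRAK1 (ENSG00000184216, chrX:154010506-154019902, minus strand), a kinase that MYD88 recruits through IRAK4, was listed at 208.67, 113.75 and 113.85 FPKM. The rhFGF19 libraries lay below vehicle and differed little from each other, with a log2 fold change of -0.87 at both doses, which did not pass 2-fold. Relative to the median of all genes the difference was -1.49 at both doses, and with the median ratio set to 0 as above it was -1.10 at both doses, past 2-fold. Per length, IRAK1 was listed at 16.7 times MYD88 in vehicle, 6.16 times with 50 ng/mL and 5.94 times with 100 ng/mL.

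Ordered by level per length in vehicle, the members ran IRAK1, IL1B, MYD88, IL1A, IL1R1, IL1RAP, IL18, IL33 and IL1RL1. The first 6 kept this order in both rhFGF19 libraries. With 1 library each, whether neighbours in this order differ beyond the spread between cultures cannot be told, and the 5 lowest members rest on values under 1 FPKM. Between the rhFGF19 libraries, 0 of the 4 members differed by more than 2-fold in either direction, where 1.74% of all genes tested did.

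**Figure D2:**
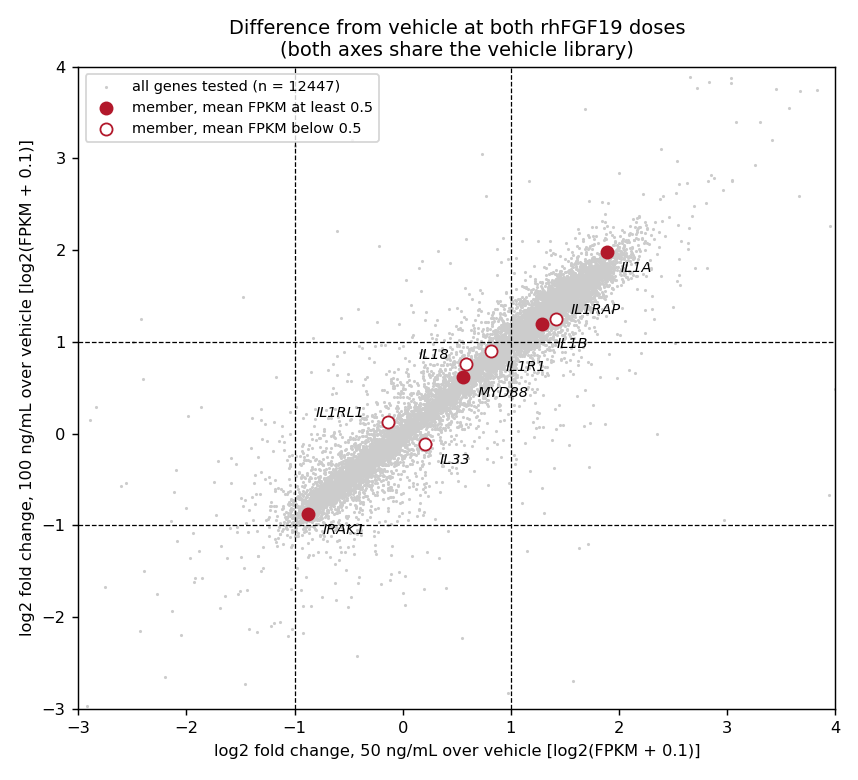
Log2 fold change over vehicle with 50 ng/mL (horizontal) and 100 ng/mL (vertical) on the log2(FPKM + 0.1) scale, with grey points for the 12447 genes tested, filled red points for the 4 members above the filter and open points for the 5 below it. Dashed lines mark 2-fold, 51 genes lie outside the axes, and the spread along the diagonal includes the shared vehicle library. IL1A and IL1B lie past 2-fold at both doses, and IRAK1 lies just short of it on the lower side.

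The fold changes of all genes went with the GC content of their transcripts, and the members followed the same order. Transcript GC content was 39.1% for IL1A, 48.9% for IL1B, 53.7% for MYD88 and 63.1% for IRAK1, as the median over the transcripts of each gene, and the longest of the 8 transcripts of IL1B had 45.7%. Among the 650 genes tested within 1 percentage point of IL1A, the median log2 fold change was 1.52 at both doses, beside 1.88 and 1.98 for IL1A. The 905 genes around IL1B had medians of 0.99 and 0.97, beside 1.28 and 1.19, and IL1B lay within their middle range of 0.45 to 1.30 with 50 ng/mL. The same held for MYD88, at 0.56 within a middle range of -0.28 to 0.77 for its 871 neighbours. IL1A lay above the middle range of its neighbours with 50 ng/mL, 1.30 to 1.72, and IRAK1 at -0.87 lay below that of its 669 neighbours, -0.75 to -0.21. The middle range is the span between the lower and the upper quartile.

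With the trend on GC content removed by local regression, the members kept their signs and none passed 2-fold. Over all genes, fewer were then higher past 2-fold than the 4910 and 4796 as deposited, at 50 and 100 ng/mL. More were lower than the 221 and 197 as deposited. Of the 12397 genes with GC content, 477 were higher and 628 lower past 2-fold with 50 ng/mL, and 420 and 560 with 100 ng/mL. The remaining log2 difference was 0.39 and 0.50 for IL1A, 0.39 and 0.31 for IL1B, 0.30 and 0.36 for MYD88, and -0.42 and -0.43 for IRAK1, at 50 and 100 ng/mL. These values use the median GC content over transcripts. The longest transcript had 45.7% for IL1B and 51.9% for MYD88, below those medians, where the falling trend lies higher. Less would then remain for both genes, and whether their signs would hold was not computed. The root mean square difference between the rhFGF19 libraries over all genes tested, divided by the square root of 2, was 0.24 before the trend was removed. That is a spread per library. A difference between a pair of libraries spreads more widely, so 0.24 is no bound for the differences above. Among the low receptor chains, IL1R1 at 0.82 lay below the median of 1.34 of genes of like GC content, and IL1RAP at 1.42 was close to its median of 1.51. Those medians are of genes above the filter, whereas both chains lie under it, where the added 0.1 shrinks a change. Without it, the ratios with 50 ng/mL were 2.04 for IL1R1 and 3.86 for IL1RAP, so closeness to a median cannot be read. The part of base composition in these differences was not tested, and with 1 library per condition the treatment and the preparation of a library cannot be told apart.

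**Figure D3:**
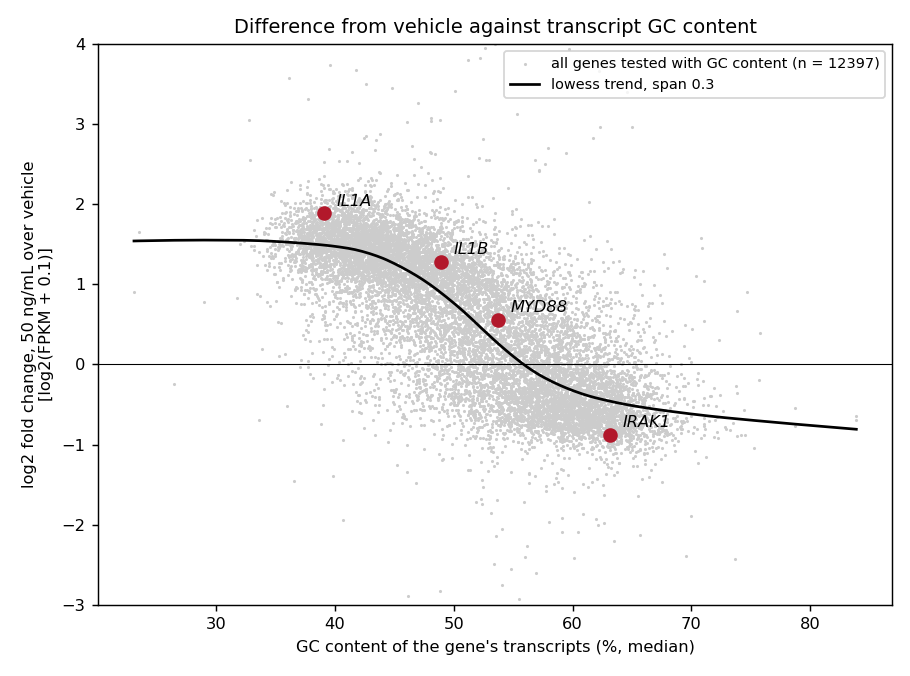
Log2 fold change with 50 ng/mL over vehicle against the GC content of the gene's transcripts in percent, for 12397 genes tested (grey, 37 outside the vertical axis), with the local regression as a black line and 4 members in red. The line falls from 1.49 at the GC content of IL1A to -0.46 at that of IRAK1, and IL1A, IL1B and MYD88 lie above it and IRAK1 below it.

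The rest of the pathway was described with 5 lists of genes. Among the other ligands and the IL-18 binding protein, 2 of 7 genes were listed and tested. IL18BP, a secreted protein that captures IL-18, was listed at 0.38 FPKM in vehicle, 1.15 with 50 ng/mL and 1.23 with 100 ng/mL, which gave log2 fold changes of 1.38 and 1.47. It was the 1 gene of the 2 tested that was higher at each dose, where 39.4% and 38.5% of all genes tested were. It remained past 2-fold without the GC trend, at 1.35 and 1.44, as did 477 and 420 of the 12397 genes with GC content. Its vehicle level was low, so these values are a description of 1 gene. The other gene tested, IL37, an anti-inflammatory member of the family, was looked up for this count and stood at 0.50, 0.32 and 0.79 FPKM. Of 7 other receptors, 2 were listed and 1 was tested, with 0 higher and 0 lower at each dose. That gene, SIGIRR, an inhibitory receptor of the family that was looked up for this count, had 11.3, 7.02 and 7.60 FPKM. The decoy receptor IL1R2, the listed neighbour of IL1R1, binds IL-1 without signaling and was listed at 0, 0 and 0.09 FPKM.

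All 19 other signaling proteins between receptor and NF-κB were listed, and 15 were tested. Of these, 6 were higher with 50 ng/mL (40.0%, beside 39.4% of all genes) and 7 with 100 ng/mL (46.7%, beside 38.5%), 0 were lower, and the medians were 0.92 and 0.93, beside 0.62 and 0.61. UBE2N, which builds lysine-linked ubiquitin chains with TRAF6, was listed at 2.40 FPKM in vehicle and at 9.35 and 9.44 FPKM in the rhFGF19 libraries, a log2 fold change of 1.92 and 1.93. TAB2, which ties those chains to the kinase TAK1, was listed at 2.27, 7.47 and 7.04 FPKM. MAP3K7, the gene of TAK1 itself, was listed at 1.19, 3.65 and 3.19 FPKM. Each of these was higher in both rhFGF19 libraries than in vehicle. CHUK, a catalytic subunit of the IκB kinase, was also higher, at 0.83, 2.26 and 2.44 FPKM. The other IκB kinase subunits, looked up after their values were seen, did not pass 2-fold, with log2 fold changes of 0.51 and 0.45 for IKBKB and -0.70 and -0.66 for the scaffold IKBKG. Of the kinases related to IRAK1, likewise looked up afterwards, IRAK4 was higher at 1.28 and 1.53, and IRAK2 stood at 0.92 and 0.81. Without the GC trend, 0 genes of this list were higher at either dose and its medians were -0.09 and -0.04. Among the 12397 genes with GC content, 477 and 420 were higher then.

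Processing and release of IL-1 was covered by 19 genes, of which 17 were listed and 15 tested. With 50 ng/mL 6 were higher (40.0%, beside 39.4% of all genes) and 0 lower, and with 100 ng/mL 7 were higher (46.7%, beside 38.5%) and 1 lower (6.67%, beside 1.58%). These shares rest on 15 genes, and the medians of 0.63 and 0.58 were close to the 0.62 and 0.61 of all genes. CASP1, the protease that cuts the precursors of IL-1β and IL-18, was listed at 0.22 FPKM in vehicle, 0.95 with 50 ng/mL and 1.33 with 100 ng/mL, which gave log2 fold changes of 1.71 and 2.16. CARD16, a short relative of CASP1 that can share reads with it, was listed at 0.30, 1.21 and 1.03 FPKM, so the split between the pair is uncertain. CASP4, which senses cytosolic lipopolysaccharide, was listed at 1.42, 5.54 and 5.08 FPKM. All 3 caspase-related genes were higher at each dose. ANXA2, a membrane-binding protein with near-identical pseudogenes, was listed at 123, 375 and 375 FPKM, with log2 fold changes of 1.60 at both doses. PYCARD, the adaptor that joins sensors to CASP1, was the 1 gene that was lower, at 3.60 FPKM in vehicle, 2.24 with 50 ng/mL and 1.61 with 100 ng/mL. Its log2 fold change was -1.11 with 100 ng/mL, past 2-fold, and -0.66 with 50 ng/mL, short of it, and without the GC trend it was -0.69 with 100 ng/mL, so that the call was lost. NLRP3, a sensor of the inflammasome that was looked up after its values were seen, stood at 3.49, 4.86 and 4.78 FPKM. Without the GC trend, 0 genes of this list were higher at either dose, beside 477 and 420 of the 12397 genes with GC content.

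All 24 genes listed as responsive to IL-1 were found, and 21 were tested. At each dose 7 were higher (33.3%, beside 39.4% and 38.5% of all genes) and 0 lower, with medians of 0.76 at both doses. CXCL8, a neutrophil-attracting chemokine, was listed at 47.4 FPKM in vehicle, 143 with 50 ng/mL and 146 with 100 ng/mL, which gave log2 fold changes of 1.60 and 1.62. TNFAIP3, an enzyme that dampens NF-κB signaling, was listed at 3.86, 10.9 and 10.6 FPKM. BIRC3, a ubiquitin ligase of the same pathway, was listed at 0.63, 2.06 and 1.88 FPKM. VCAM1, an adhesion molecule for leukocytes, was listed at 0.25, 1.18 and 1 FPKM. All 4 were higher in both rhFGF19 libraries. Other genes of this list, taken up after their values were seen, lay below vehicle without passing 2-fold, among them CSF3, a neutrophil growth factor, at 49.5, 31.1 and 28.4 FPKM. CCL2, PTGS2 and CCL20, which IL-1 can induce and which were also taken up afterwards, did not exceed 0.11 FPKM in any library. CXCL5, IL6 and CXCL1, which the study measured with IL1A and IL1B as markers of the inflammatory state, were looked up afterwards too and lay above vehicle. By replicated qPCR, a different measure, the study reported all of these markers raised in LX-2 cells given rhFGF19. It also reported more IL-1α and IL-1β protein in their medium. In the libraries, the log2 fold changes were 1.21 and 1.33 for CXCL5, past 2-fold, 0.97 and 0.89 for IL6, and 0.76 and 0.75 for CXCL1. Without the GC trend, none of the 4 genes named first passed 2-fold, nor did CXCL5, at -0.30 and -0.16. IL6 then stood at -0.20 and -0.28 and CXCL1 at 0.12 at both doses. The medians of the list were 0.04 and -0.02. The 1 gene that did pass, looked up for this count, was CXCL2, another neutrophil-attracting chemokine, at 1.57 and 1.61. It stood beside 477 and 420 of the 12397 genes with GC content.

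**Figure D4:**
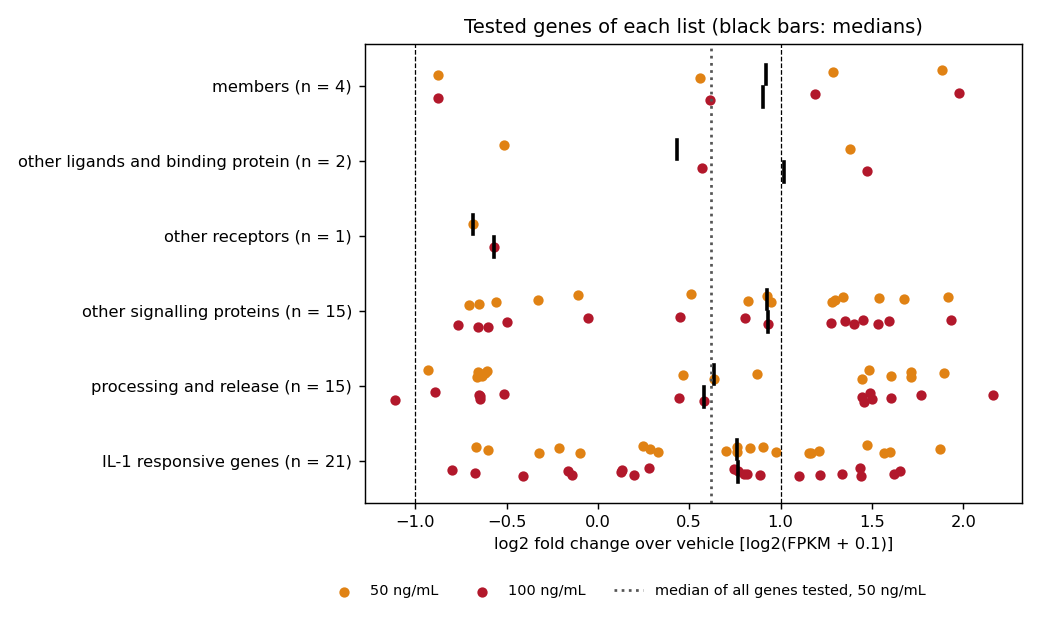
Log2 fold change over vehicle with 50 ng/mL (orange) and 100 ng/mL (red) for each tested member and each tested gene of the 5 lists, with black bars for list medians, a dotted line at the median of all genes tested with 50 ng/mL (0.62) and dashed lines at 2-fold. Each of the 3 longer lists holds genes past 2-fold on the upper side and genes below 0, and its medians lie between 0.58 and 0.93.

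The position of the members on the chromosome was also considered. IL1A and IL1B are listed next to each other on chromosome 2. On the other side of IL1A lies CKAP2L, a gene of the mitotic spindle, which was listed at 2.52, 9.01 and 8.33 FPKM, with log2 fold changes of 1.80 and 1.69. On the other side of IL1B lies the pseudogene XIAPP3, at 0.07, 0 and 0 FPKM. IL1R1 and IL1RL1 are listed next to each other in a receptor cluster between IL1R2 and MFSD9, and MFSD9, a membrane transporter-like gene, stood at 2.96, 3.13 and 3.14 FPKM. No listed gene overlapped a listed member.

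Many genes shared the pattern of IL1A and of IL1B. Likeness was the distance between the pairs of log2 fold changes at both doses, over the 10464 other genes that averaged 1 FPKM or more. The genes nearest to IL1A were SHLD2, CCNC and DDX21, and 62 genes lay within 0.1. Those nearest to IL1B were CNOT11, LRP11 and NFYA, and 336 genes lay within 0.1. With 3 libraries such likeness is weak and carries no statement on function.

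As a check of the label, the stellate and fibroblast markers VIM and COL1A1 were listed at 439 to 654 and 78.4 to 108 FPKM, whereas COL1A2 did not exceed 0.14 FPKM and LRAT, a vitamin A storage enzyme of stellate cells, was at 0 in all libraries. The other markers of this kind were mixed. COL3A1, PDGFRB and SPARC lay above vehicle in both rhFGF19 libraries, and TIMP1, THY1 and ACTA2 below it, with TIMP1 at 308, 184 and 193 FPKM. The 10 markers of this kind, all listed, summed to 910, 1057 and 1058 FPKM, carried mostly by VIM and TIMP1. Because myeloid cells are a rich source of IL-1β, their markers were summed as well, and the 5 of 8 that were listed gave 5.93, 3.97 and 3.87 FPKM, with CD14 highest at 4.28. The 4 endothelial markers summed to 0.50, 0.48 and 0.48 FPKM, the 2 of 4 mast cell markers listed to 0, 0.18 and 0.38, and the 4 hepatocyte markers to 11.3, 12.5 and 11.4. Of 4 epithelial markers 3 were listed and summed to 503, 308 and 302 FPKM, carried by KRT8 and KRT18, with CDH1 at or below 0.01. The listed values summed to between 276690 and 302243 FPKM per library, and 8890 genes were listed at 1 FPKM or more in vehicle, compared with 10925 and 10894 in the rhFGF19 libraries.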

How the data were processed

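The mRNA of LX-2 cells was sequenced as paired ends on an Illumina instrument, 1 library for each condition. Per the study's methods, HISAT2 aligned the reads. The authors deposited FPKM values to 2 decimals, with identifiers and coordinates. The submitters' processing notes name Bowtie 0.12.2, HISAT2 2.0 and StringTie 1.3.0 and the builds hg19 and mm8. The coordinates nonetheless overlapped GRCh38 positions for 99.9% of the 25531 identifiers found in GENCODE v29, and for all 9 members. The methods describe logCPM, whereas the deposited values are FPKM, and which of the named programs made them, and with which strand setting, is not given in the sources used here. FPKM keeps no counts, so depth is unknown and no interval is given. FPKM estimates can be misassigned between near-identical genes.

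Levels were compared as log2(FPKM + 0.1) for genes that averaged 0.5 FPKM or more over the 3 libraries, with a threshold of 1. GC content and length were medians over a gene's transcripts in GENCODE v29, and GC content was found for 12397 of the 12447 genes tested. Trends were fitted by lowess with a span of 0.3. The procedure was run on simulated data with random noise and imposed changes. That run cannot show whether calls from single real libraries would repeat. Python 3.11.15 was used with NumPy 2.4.6, pandas 2.3.3, statsmodels 0.14.6 and Matplotlib 3.10.9. The members and lists were chosen with earlier results of these data known. Genes named were all members, up to 4 genes per list past 2-fold in the same direction at both doses, list genes that were lower past 2-fold, the 3 genes nearest in pattern to IL1A and IL1B, and listed neighbours. Any other gene is named as looked up afterwards or as a marker. The 12 alternatives set at the outset changed pseudocount, filter, scaling, threshold, trends and pooling, and 1 more, removing both trends, was added after seeing the data.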

Additional observations from a re-analysis of the deposited data

How the results depend on the processing

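No paired analysis was possible because each condition had 1 library, and for the same reason no library could be left out. The number of members past 2-fold on the upper side, 2 of 4 at each dose, became 0 and 0 with the GC trend removed, with GC and length trends removed and with a log2 threshold of 2. It became 1 and 1 with the length trend removed, and 1 at 100 ng/mL with the median ratio of genes of at least 1 FPKM set to 0. It rose to 3 at each dose without the filter, where IL1RAP entered, and to 3 at 100 ng/mL with a threshold of 1.5-fold, where MYD88 was added. The number on the lower side, 0, became 1 at each dose with that median ratio set to 0, with the length trend removed and with a threshold of 1.5-fold, and that gene was IRAK1. The median log2 fold change of the members, 0.92 and 0.90, became 0.34 and 0.33 without the GC trend, 0.29 and 0.28 without the length trend and 0.24 and 0.31 without both, and 0.58 at 50 ng/mL without the filter, where 9 members entered. Why these values moved was not tested beyond the number of genes or the threshold that defines a setting. Over all alternatives and both doses, IL1A ranged from 0.31 to 2.18, IL1B from 0.31 to 1.52 and IRAK1 from -1.41 to -0.42 with no change of sign, and MYD88 from -0.22 to 0.72, below 0 at both doses only without the length trend. Scaling moved all genes. At 50 ng/mL, 4910 were higher and 221 lower as deposited, 3788 and 783 with the median ratio set to 0, 1181 and 1238 after quantile normalization, 1739 and 2032 without the length trend and 477 and 628 without the GC trend. The median of all genes at 50 ng/mL, 0.62, became 0.40, 0.11, 0.05 and 0.01, respectively. Without counts, what depth would limit is unknown.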
